A study of Mus musculus with 6 samples.

Results

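The nuclear genes of oxidative phosphorylation were examined in neuro2a cells, a mouse neuroblastoma line, after RNAi against NF-YA and NF-YC. Members were taken by symbol: every gene whose name starts with Nduf, Sdha, Sdhb, Sdhc, Sdhd, Uqcr, Cox4, Cox5, Cox6, Cox7, Cox8, Cyc1 or Atp5. These symbols covered 101 protein-coding genes in the RefSeq table, of which 98 had a matched probe among 20145 genes on the arrays, and 97 passed the signal filter among 16493 genes tested. Ndufb1, Ndufb4b and Ndufb4c had no matched probe, and Cox8c, the testis isoform of a complex IV subunit, was too dim to be tested. The symbols also take in 13 assembly factors and 7 tissue or paralogous isoforms, so the 97 genes were split into 77 subunits, 7 isoforms and 13 assembly factors. Cox7a2l, a factor of supercomplexes rather than of 1 complex, was counted with the assembly factors. The symbol rule itself uses no measured value.

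RNA was measured on 6 single-colour Agilent arrays. The 3 control arrays carried RNA of cells transfected with the empty miR RNAi vector, and the 3 knockdown arrays carried RNA of cells transfected with the NF-YA and NF-YC vectors of the same backbone. Per the study's methods, cells were transfected transiently and harvested after further incubation, and no sorting of transfected cells was described for these cultures, so each array is an average over cells with and without vector. A lower level in such bulk RNA cannot be told apart from a smaller share of the cells that carry the transcript. Nothing in the labels says whether replicates came from separate cultures, so p-values measure the spread between these arrays, which may be technical.

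Oxidative phosphorylation moves electrons from NADH through complex I, or from succinate through complex II, to complex III and then through cytochrome c to complex IV, which reduces oxygen. Complexes I, III and IV pump protons across the inner mitochondrial membrane, and complex V, the ATP synthase, uses the gradient to make ATP. Most subunits are encoded in the nucleus, and assembly factors generally join subunits and insert cofactors without staying in the finished complex. NF-Y is a trimer of NF-YA, NF-YB and NF-YC that binds the CCAAT box of promoters.

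Levels are given as log2 of the processed signal relative to the 75th percentile of the same array, and a change is the knockdown mean minus the control mean on that scale. Because the members' small changes depended on how arrays were scaled, counts, medians and the changes the results turn on are also given after quantile normalization. The 75th percentile itself lay between 718 and 754 units of processed signal on the 6 arrays, and 61.9 to 66.2% of spots were well above background. All arrays sat on 1 slide, but knockdown arrays 2 and 3 lay in its second row, which held no control. Nfya was at 0.14, 0.15 and 0.21 on the control arrays and at -0.66, -0.52 and -0.59 on the knockdown arrays, a change of -0.76 (adjusted p = 0.00128). Nfyc was at 4.0, 3.93 and 3.98 on the control arrays and at 2.12, 2.20 and 2.18 on the knockdown arrays, a change of -1.81 (adjusted p = 0.000323). Nfyb, the subunit that was not targeted, rose by 0.83 (adjusted p = 0.00131). All 14 tested of 15 neuronal and neuroblastoma markers were well above background on all 6 arrays. Their levels, summed as linear signal relative to the 75th percentile, came to 389 to 400 in controls and 368 to 381 in knockdown arrays, against 0.230 to 0.305 for 6 fibroblast, 0.841 to 1.26 for 6 glial, 3.98 to 5.64 for 4 immune and 1.13 to 1.36 for 5 muscle markers.

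Few of the 97 genes moved far. Under the call rule, an adjusted p below 0.05 together with more than a 1.5-fold difference, 2 genes were lower, Ndufa4l2 and Cox7a1, and 0 were higher. Over all genes tested 5.00% were called lower and 3.90% higher under the same rule, and after quantile normalization, where the same 2 members were called, 5.12% and 3.61%. At any fold, 15 members fell and 7 rose at an adjusted p below 0.05, against 15.8% lower and 15.7% higher among all genes, so 15.5% of members fell and 7.22% rose. Of the 1650 genes in the brightest 10%, which held 71 of the members, 44 were called lower and 4 higher. At any fold 18.5% of these bright genes fell and 9.21% rose. After quantile normalization 10 members fell and 14 rose, with 15.5% and 18.6% of all genes. In both scalings 10 genes fell and 7 rose. The values without each array show how closely these counts rest on 3 against 3: the 15 lower genes became 4 without control 1, 5 without control 2, 11 without control 3, 7 without knockdown 1, 5 without knockdown 2 and 5 without knockdown 3, and the 7 higher genes became 4 without control 3 and 3 without any other array. Cox7a1, Ndufaf7 and Sdhd (lower) and Sdhaf1 (higher) stayed below an adjusted p of 0.05 in each of the 16 alternatives run. Since 1 of these, the slide row as a block, rests on knockdown 1 alone against the controls, it says nothing about knockdown arrays 2 and 3.

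**Figure D1:**
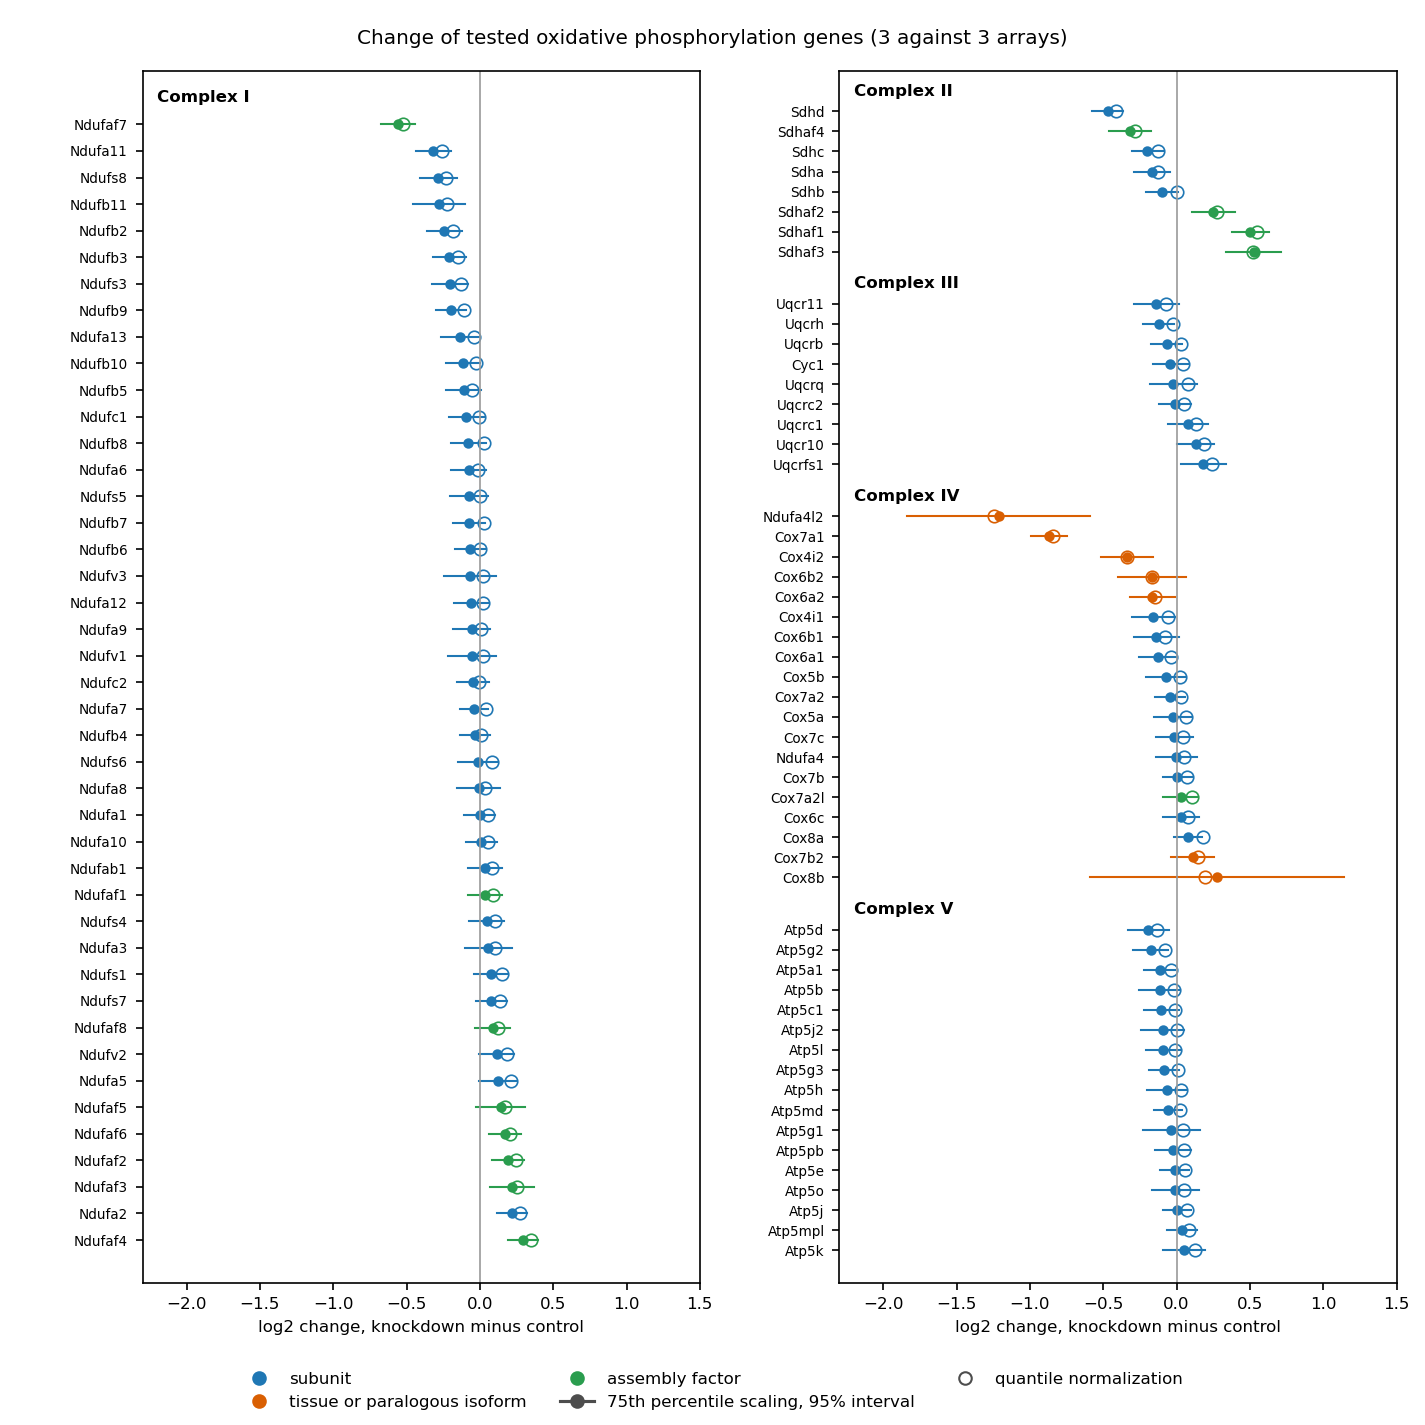
The change of 96 of the 97 tested genes (log2, knockdown minus control, horizontal axis) is plotted by complex, with filled circles and 95% intervals from limma for the 75th percentile scaling, open circles for quantile normalization and colours for subunits, isoforms and assembly factors. Most subunits lie close to 0, Ndufa4l2 at -1.21 and Cox7a1 at -0.87 lie farthest to the left, and Sdhaf3 at 0.53 and Sdhaf1 at 0.50 lie farthest to the right.

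The 77 subunits had the narrowest spread of changes, from -0.47 to 0.22. For 77 of 77, each read from its brightest probe, the 95% interval of the change lay inside a 1.5-fold change in either direction. This does not cover other probes: another probe of the subunit Ndufb11, well above background on all 6 arrays, gave -1.32 (adjusted p = 0.00158 in limma). Among all genes tested 15.8% fell and 15.7% rose at any fold, and 15.5% and 18.6% after quantile normalization. Of the 77 subunits 10 fell (13.0%) and 1 rose (1.30%) at any fold, with a median change of -0.060. After quantile normalization 5 subunits fell and 7 rose, with a median of 0.025. Among the 7 isoforms 3 fell (42.9%) and 0 rose, with a median of -0.17 under both scalings. Of the 13 assembly factors 2 fell (15.4%) and 6 rose (46.2%), with a median of 0.17. After quantile normalization 2 assembly factors fell and 7 rose, with a median of 0.21. The difference between the classes was not tested, and after quantile normalization the medians of subunits and of assembly factors both lay above 0. The median over all genes tested was 0.0053, or 0.010 after quantile normalization. The knockdown arrays did not overlap the controls and were all higher for 9 of 13 assembly factors (69.2%) and for 9 of 77 subunits (11.7%), where 27.7% of all genes were all higher. All lower were 2 assembly factors (15.4%), 33 subunits (42.9%) and 27.0% of all genes. These shares depended on the scaling, since after quantile normalization 13 subunits (16.9%) were all lower and 25 (32.5%) all higher, against 2 and 11 assembly factors. Of all genes 25.6% were then all lower and 30.5% all higher.

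The small shift of the subunits had the sign of the median change of bright genes as a whole, members included. By mean signal, 71 of the 97 members were among the brightest 10% of the genes tested. These 1650 bright genes as a whole had a median change of -0.039 by the 75th percentile and 0.034 after quantile normalization, and the 71 members among them had medians of -0.056 and 0.026. At an adjusted p below 0.05, 18.5% of the bright genes fell and 9.21% rose, and of the 71 members 11.3% and 1.41%. After quantile normalization 240 bright genes fell and 321 rose, among them 3 and 7 of the 71 members. The dimmest 10% of genes had a median of 0.032 by the 75th percentile and -0.083 after quantile normalization. Under each scaling the family's median thus had the same sign as the median of these bright genes, and the cause was not tested.

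**Figure D2:**
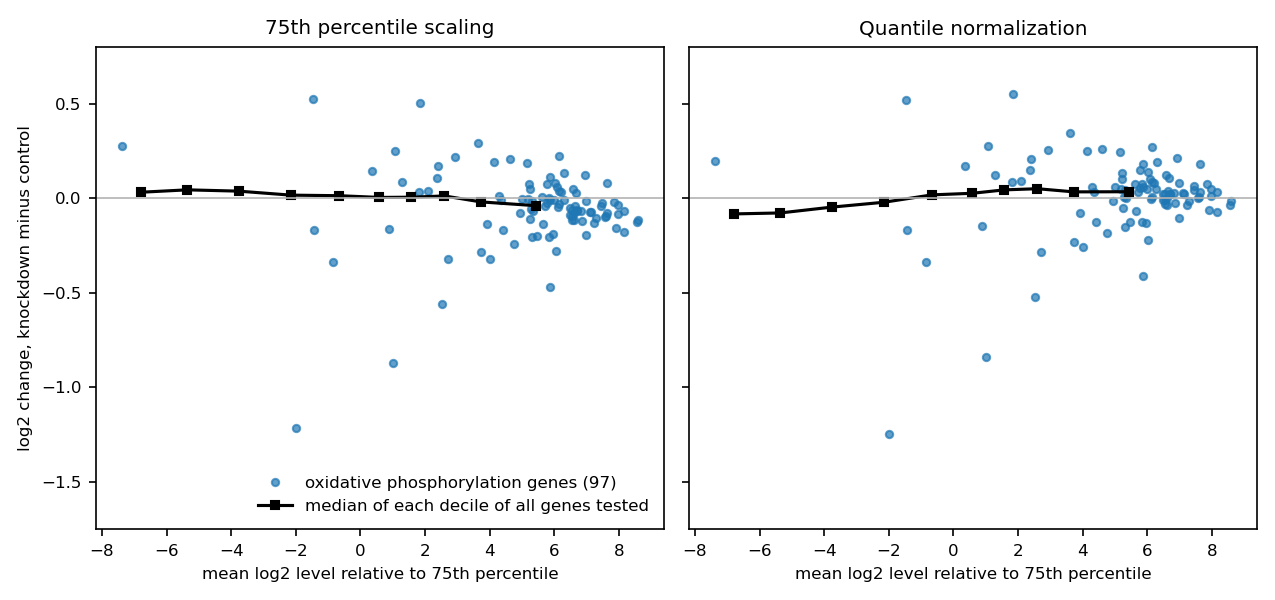
Each blue point is 1 of the 97 genes, placed by its mean log2 level relative to the 75th percentile (horizontal axis) and its log2 change (vertical axis) under both scalings, and black squares are the medians of each decile of all 16493 genes tested. The squares at the bright end lie at -0.039 in the left panel and 0.034 in the right panel, and the crowd of bright members moves with them.

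Complex IV held both called genes, and both are isoforms. Ndufa4l2 is a paralogue of the complex IV subunit gene Ndufa4 and is known for its induction in low oxygen. It was at -1.54, -1.59 and -1.08 on the control arrays and at -2.71, -2.94 and -2.19 on the knockdown arrays. The groups did not overlap, but both groups were more widely spread than those of Cox7a1. The change was -1.21 with an SE of 0.24, or 2.32-fold lower (adjusted p = 0.0236), and -1.25 after quantile normalization (adjusted p = 0.0264). This call was lost without control 1 (adjusted p = 0.0649), control 2 (0.0564), control 3 (0.0618), knockdown 1 (0.0762) or knockdown 2 (0.0634), with changes between -1.05 and -1.31, and with the slide row as a block, which leaves knockdown 1 alone against the controls (change of -1.31, adjusted p = 0.121). Ndufa4 itself, the common subunit, had a change of -0.0021 (adjusted p = 0.983).

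Cox7a1, the heart and skeletal muscle isoform of subunit VIIa, had the smallest adjusted p of the family. It was at 1.38, 1.47 and 1.48 on the control arrays and at 0.59, 0.57 and 0.55 on the knockdown arrays. Each knockdown array lay well under each control, and the spread within either group was small. The change was -0.87 with an SE of 0.048, or 1.83-fold lower (adjusted p = 0.000668), and -0.84 after quantile normalization, and it was called in each of the 16 alternatives. The 5 tested muscle markers summed to 1.27 to 1.36 in controls and 1.13 to 1.22 in knockdown arrays. Of these markers 1 fell, Tnnt2 at -0.24 (adjusted p = 0.0492), and Ckm was well above background on 1 array. Their part in the fall of Cox7a1 was not tested. The common partner Cox7a2 had a change of -0.044 (adjusted p = 0.486).

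The promoter of Cox7a1 is shown because it holds the box that NF-Y binds. The stretch is the 150 bases before the start site (RefSeq, GRCm38.p6, chr7:30184021-30184170, plus strand), with CCAAT, or its reverse complement ATTGG, in capitals.
Cox7a1: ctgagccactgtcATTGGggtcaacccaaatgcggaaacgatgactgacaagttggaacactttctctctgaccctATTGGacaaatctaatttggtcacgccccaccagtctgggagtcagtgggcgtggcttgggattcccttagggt
Counted from the start site, the first letter of the boxes lay at -137 and -74.

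Cox4i2, the isoform of subunit IV found mainly in lung, fell as well. It was at -0.72, -0.70 and -0.65 on the control arrays and at -0.93, -1.15 and -1.0 on the knockdown arrays, without overlap. The change was -0.34 (SE 0.070, adjusted p = 0.0256) and -0.34 after quantile normalization (adjusted p = 0.0312). It lost its pass in 6 of 16 alternatives, among them without any 1 control and without knockdown 3, with an adjusted p of up to 0.183. The common isoform Cox4i1 had a change of -0.16 (adjusted p = 0.114) and of -0.060 after quantile normalization. Cox6b2 at -0.17, Cox6a2 at -0.16 and Cox7b2 at 0.11 did not pass, and on 0 of the 6 arrays was Cox8b well above background. Of the 11 common subunits of complex IV 0 passed at an adjusted p below 0.05 in limma, with a range of -0.16 to 0.078, and after quantile normalization 1 rose, Cox8a, at 0.18 (adjusted p = 0.0327). At that limit 15.8% of all genes fell and 15.7% rose, and 15.5% and 18.6% after quantile normalization. The median change of the 19 complex IV genes was -0.044, or 0.032 after quantile normalization.

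**Figure D3:**
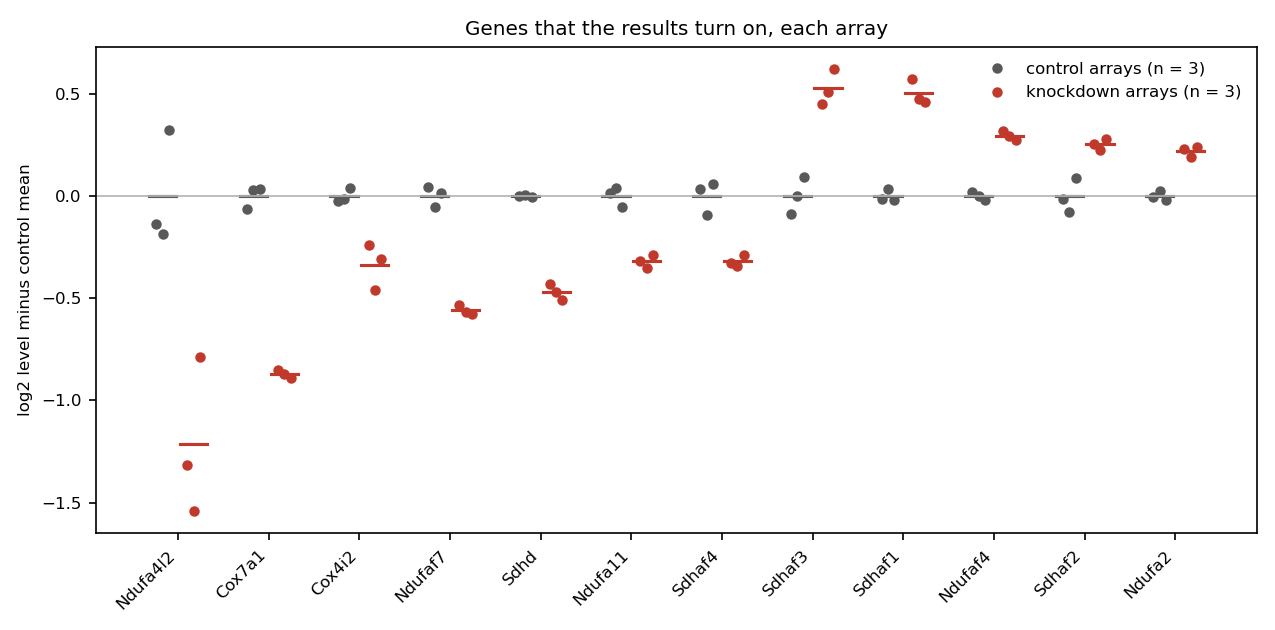
The log2 level of 12 genes on each array is plotted relative to the mean of its 3 controls, with grey points for controls, red points for knockdown arrays and bars for group means. Ndufa4l2 is spread from -1.54 to -0.79 in the knockdown arrays, whereas the 3 red points of Cox7a1, Ndufaf7 and Sdhd lie close together below 0 and those of Sdhaf1 and Ndufaf4 above it.

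Complex I, with 44 tested genes, had 8 that fell (18.2%) and 4 that rose (9.09%) at any fold. By the brightest probe of each gene, none of them passed 1.5-fold. The median was -0.044, or 0.029 after quantile normalization, when 5 fell and 8 rose. The shares of all genes tested were 15.8% lower and 15.7% higher, and 15.5% and 18.6% after quantile normalization. Ndufaf7, a mitochondrial methyltransferase needed for the assembly of the complex, fell most. It was at 2.85, 2.75 and 2.82 on the control arrays and at 2.28, 2.24 and 2.23 on the knockdown arrays. The groups lay far apart compared with their spread, and the change of -0.56 (SE 0.046, adjusted p = 0.00177), or 1.47-fold, stopped just short of the fold limit, and was -0.52 after quantile normalization. It passed that limit without control 2.

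Among the subunits Ndufa11, an accessory subunit of the membrane arm, was lowest. It was at 4.19, 4.21 and 4.12 on the control arrays and at 3.86, 3.82 and 3.89 on the knockdown arrays, a change of -0.32 (SE 0.047, adjusted p = 0.00914) and of -0.26 after quantile normalization. Ndufs8, a core subunit that carries iron-sulfur clusters, was at 3.88, 3.92 and 3.81 against 3.62, 3.55 and 3.58, a change of -0.28 (adjusted p = 0.0147) and of -0.23 after quantile normalization. Every knockdown array was below every control for both genes. Ndufb2 at -0.24 (adjusted p = 0.0210) and Ndufb3 at -0.21 (adjusted p = 0.0262), accessory subunits of the membrane arm, also fell under both scalings, with -0.18 and -0.15 after quantile normalization. Ndufb11, Ndufs3 and Ndufb9 passed by the 75th percentile, at -0.28, -0.20 and -0.20, but not after quantile normalization, at -0.22, -0.13 and -0.11. Ndufs8, Ndufb2 and Ndufb3 each lost an adjusted p below 0.05 without some of the arrays, and their highest adjusted p over all alternatives were 0.125, 0.162 and 0.168.

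Ndufb11 was read differently by its probes. Its brighter probe gave -0.28 (adjusted p = 0.0447), and another probe, well above background on all 6 arrays, gave -1.32 (adjusted p = 0.00158), or -1.34 after quantile normalization. With probes averaged, Ndufb11 joined the called genes. Of 31 further probes on 24 members 26 had the sign of the probe used, and in 0 cases did opposite signs both pass. Ndufaf5 also differed between probes. It is an assembly factor of complex I and was at 0.14 (adjusted p = 0.196) by the brighter probe, while a dimmer probe was lower (adjusted p = 0.0182). The dimmer probe was well above background on the 3 controls and on 0 knockdown arrays, so its knockdown level is a bound and no fold is given.

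Ndufa2 is an accessory subunit of the matrix arm. By the brightest probe of each gene, it was the 1 subunit of any complex that rose by the 75th percentile. It was at 6.03, 6.06 and 6.01 on the control arrays and at 6.26, 6.22 and 6.27 on the knockdown arrays, a change of 0.22 (SE 0.041, adjusted p = 0.0180) and of 0.27 after quantile normalization. All knockdown arrays were above all controls. The assembly factor Ndufaf4 was at 3.49, 3.47 and 3.46 against 3.79, 3.77 and 3.75, a change of 0.29 (SE 0.040, adjusted p = 0.00693) without overlap, and 0.35 after quantile normalization. The assembly factors Ndufaf2 at 0.19 (adjusted p = 0.0310) and Ndufaf6 at 0.17 (adjusted p = 0.0470) rose under both scalings, and Ndufaf3 at 0.22 (adjusted p = 0.0551) passed after quantile normalization at 0.26 (adjusted p = 0.0262). Of these rises Ndufa2 lost its pass in 9 of 16 alternatives, Ndufaf2 in 10, Ndufaf6 in 11 and Ndufaf4 in 2, and under median centring Ndufaf2 stood at 0.084 and Ndufaf6 at 0.062. Of the 8 complex I assembly factors, each read from its brightest probe, 7 had a change above 0, as did 8373 of all 16493 genes tested. Ndufaf7 was the exception, and with probes averaged Ndufaf5 also fell at an adjusted p below 0.05 in limma.

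Ndufs8 and Ndufb2 are shown as members that fell and that hold the box, again over the 150 bases before the start site (RefSeq, GRCm38.p6), at chr19:3912775-3912924 on the minus strand and chr6:39592415-39592564 on the plus strand. CCAAT is in capitals.
Ndufs8: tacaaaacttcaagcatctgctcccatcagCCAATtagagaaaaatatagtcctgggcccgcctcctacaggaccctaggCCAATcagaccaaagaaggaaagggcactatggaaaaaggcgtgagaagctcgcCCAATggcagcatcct
Ndufb2: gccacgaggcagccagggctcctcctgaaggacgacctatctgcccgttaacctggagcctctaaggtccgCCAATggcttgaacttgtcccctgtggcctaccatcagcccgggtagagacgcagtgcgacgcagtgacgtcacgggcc
Ndufs8 holds 3 boxes, at -120, -70 and -16, and Ndufb2 holds 1 at -79.

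In complex II, the succinate dehydrogenase, subunits and most assembly factors had changes of opposite sign. Its 4 subunits all had changes below 0: Sdhd at -0.47, Sdhc at -0.20, Sdha at -0.17 and Sdhb at -0.099, of which Sdhd and Sdhc passed (adjusted p = 0.00210 and 0.0257). After quantile normalization Sdhd passed alone, and Sdhb stood at 0.0035. Lower at the same rule were 15.8% of all genes, and 15.5% after quantile normalization. Sdhd, which with Sdhc anchors the enzyme in the membrane, was at 6.11, 6.11 and 6.10 on the control arrays and at 5.68, 5.64 and 5.60 on the knockdown arrays. The 3 controls were almost equal and every knockdown array was well below them, with an SE of 0.042, and the change was -0.41 after quantile normalization.

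Of the 4 assembly factors of complex II 3 rose and 1 fell under both scalings, where 2441 of all 16493 genes tested rose and 2384 fell. Sdhaf1, which helps to place iron-sulfur clusters in SDHB, was at 1.58, 1.63 and 1.58 on the control arrays and at 2.17, 2.07 and 2.06 on the knockdown arrays, a change of 0.50 (SE 0.050, adjusted p = 0.00284). Sdhaf3, which acts in the same step, was at -1.82, -1.73 and -1.64 against -1.28, -1.22 and -1.11, a change of 0.53 (SE 0.073, adjusted p = 0.00769). Neither gene had overlapping groups, and after quantile normalization the changes were 0.55 and 0.52. Sdhaf2, needed to attach the flavin to SDHA, was at 0.94, 0.87 and 1.04 against 1.20, 1.17 and 1.23, a change of 0.25 (SE 0.058, adjusted p = 0.0343) and of 0.28 after quantile normalization. Sdhaf2 lost its pass in 9 of 16 alternatives, with an adjusted p of up to 0.349. Sdhaf4, which binds the flavinated SDHA, was at 2.92, 2.79 and 2.94 on the control arrays and at 2.56, 2.54 and 2.59 on the knockdown arrays, a change of -0.32 (SE 0.056, adjusted p = 0.0156), and lost its pass in 5 alternatives. Among these 4 factors it was the member whose knockdown arrays were all lower. The median of the 8 complex II genes, -0.13 or -0.060 after quantile normalization, joins these opposite changes.

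Sdhaf1, a member that rose, held the box as well. Its 150 bases before the start site (RefSeq, GRCm38.p6, chr7:30322376-30322525, minus strand) have 1 CCAAT, at -95, in capitals.
Sdhaf1: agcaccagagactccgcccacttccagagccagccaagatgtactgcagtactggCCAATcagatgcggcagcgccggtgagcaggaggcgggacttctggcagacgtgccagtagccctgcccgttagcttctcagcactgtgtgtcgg

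In complex III, the cytochrome bc1 complex, 0 of 9 genes, each read from its brightest probe, passed in limma in either direction by the 75th percentile at an adjusted p below 0.05. The changes ran from -0.14 (Uqcr11, a small subunit) to 0.18 (Uqcrfs1, the Rieske iron-sulfur protein), with a median of -0.020. Uqcrfs1 was at 5.13, 4.99 and 5.09 on the control arrays and at 5.31, 5.26 and 5.19 on the knockdown arrays, and these did not overlap (adjusted p = 0.0900). After quantile normalization Uqcrfs1 at 0.24 (adjusted p = 0.0296) and Uqcr10 at 0.19 (adjusted p = 0.0358) rose, and the median was 0.050. By the 75th percentile 15.8% of all genes fell and 15.7% rose, and after quantile normalization 15.5% and 18.6%. Another probe of Uqcr10 passed under both scalings, at 0.18 (adjusted p = 0.0486) and 0.24 (adjusted p = 0.0111), and a further one, at 0.11 (adjusted p = 0.203), passed after quantile normalization at 0.18 (adjusted p = 0.0442). A second probe of Uqcrq did not pass at 0.074, but passed after quantile normalization at 0.16 (adjusted p = 0.0435 in limma). Uqcrh, the hinge protein, was at -0.12 (adjusted p = 0.102) and at -0.027 after quantile normalization. The median of complex III also crossed 0 when 1 array was left out, from -0.062 without control 3 to 0.0055.

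Complex V had 17 genes, all of them subunits, and the narrowest range of any complex taken whole. It ran from -0.19 for Atp5d, the delta subunit, to 0.051 for Atp5k, the e subunit. The 11 subunits of complex IV alone had a similar range, from -0.16 to 0.078. In complex V Atp5g2, a gene for the c subunit of the membrane ring, was the 1 that passed, where 15.8% of all genes fell. It was at 8.23, 8.28 and 8.20 on the control arrays and at 8.09, 8.06 and 8.02 on the knockdown arrays, a change of -0.18 (SE 0.046, adjusted p = 0.0498). The groups did not overlap, but after quantile normalization the change was -0.075 (adjusted p = 0.274). A dimmer probe of Atp5g2, well above background on all 6 arrays, gave -0.29 (adjusted p = 0.0144), and -0.20 after quantile normalization (adjusted p = 0.0187). Atp5g1 and Atp5g3, the other genes for the c subunit, were at -0.035 (adjusted p = 0.780) and -0.084 (adjusted p = 0.203). The median of complex V was -0.067, or 0.024 after quantile normalization, and Atp5d did not pass (adjusted p = 0.0642). A second probe of Atp5k did not pass at 0.10, but passed after quantile normalization at 0.17 (adjusted p = 0.0362 in limma).

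Genes of the pathway outside the symbol rule were read from lists of assembly factors, regulators and the citric acid cycle. Of 44 further assembly and maturation factors 41 were tested, and 7 fell (17.1%) and 11 rose (26.8%) at an adjusted p below 0.05. Their median was 0.025. After quantile normalization 7 fell and 13 rose, with a median of 0.072. Among all genes tested 15.8% fell and 15.7% rose by the 75th percentile, and 15.5% and 18.6% after quantile normalization. The smallest adjusted p belonged to Timmdc1, a membrane arm assembly factor of complex I, at -0.85 (adjusted p = 0.00109), and to Fmc1, an assembly factor of complex V, at 0.56 (adjusted p = 0.00131). Timmdc1 was at 2.07, 1.99 and 2.13 on the control arrays and at 1.17, 1.23 and 1.26 on the knockdown arrays, so that the groups lay far apart. Fmc1 was at 4.21, 4.22 and 4.25 against 4.82, 4.79 and 4.76, also without overlap. Of 20 regulators of mitochondrial biogenesis 18 were tested, and 1 fell and 1 rose (5.56% each). Gabpb1, a subunit of nuclear respiratory factor 2, was at -0.21 (adjusted p = 0.0198). Tfb1m, an rRNA methyltransferase of mitochondria, was at 0.25 (adjusted p = 0.0211). Of 17 genes of pyruvate oxidation and the citric acid cycle 16 were tested, with 2 lower and 2 higher (12.5% each, median 0.079). After quantile normalization 1 was lower and 5 were higher (median 0.12). Cs, citrate synthase, was at -0.37 (adjusted p = 0.00347), and Idh3g, a subunit of isocitrate dehydrogenase, was at 0.51 (adjusted p = 0.00185). None of the 13 mitochondrially encoded subunits had a matched probe, so they were not analysed here.

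The CCAAT box was counted in promoter windows from 250 bases before to 50 bases after the start site (RefSeq, GRCm38.p6), on both strands. A window was given for 80 of the 97 genes, and 35 of these held the box (43.8%), as did 5577 of 13101 tested genes with a window (42.6%) and 37.4% of all 32851 windows. The letters CGCATGC, a core of the nuclear respiratory factor 1 site, were in 13 members (16.25%) and in 6.06% of tested genes, and CCGGAAG, a core bound by ETS factors, was in 22 members (27.5%) and in 16.0% of tested genes. In 20 members a CCAAT box started between -120 and -40. The 35 members with the box had a median change of -0.077, with 5 lower and 2 higher, and the 45 without it had -0.024, with 6 lower and 3 higher. Over all tested genes the medians were -0.022 with the box, where 19.99% fell and 14.8% rose, and 0.022 without it, where 13.0% fell and 16.3% rose. The members' shares lower, 14.3% with the box and 13.3% without, lay closer together than those of all genes, and that difference was not tested. After quantile normalization the members' medians were 0.0059 with the box and 0.046 without. Genes on either side of this count went both ways, since Cox7a1 and Ndufs8 fell and Sdhaf1 and Ndufaf2 rose with the box, while Sdhd and Ndufaf7 fell and Sdhaf3 and Ndufaf4 rose without it.

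**Figure D4:**
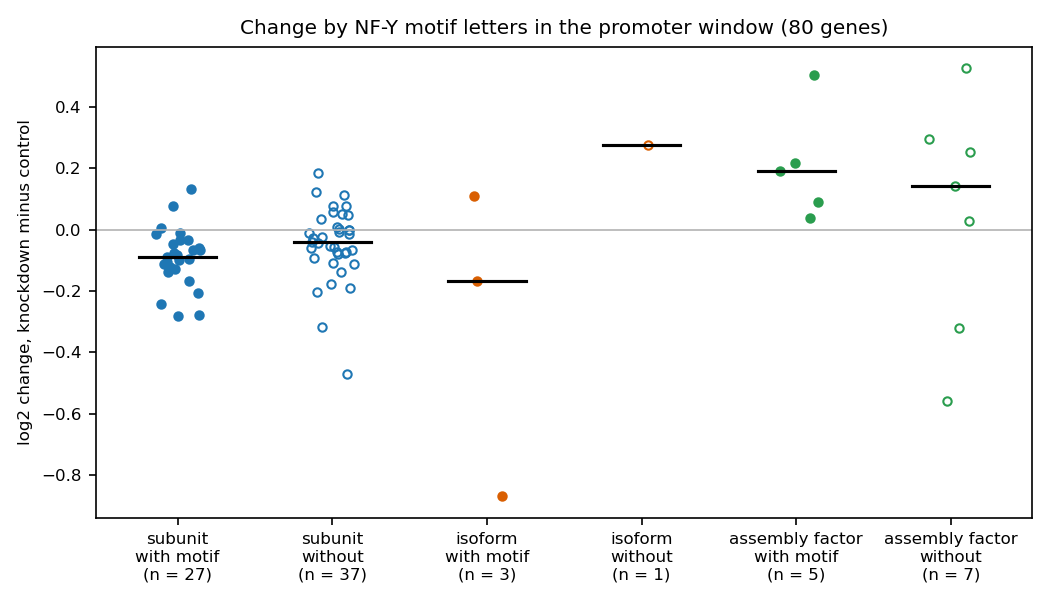
The log2 change (vertical axis) of the 80 genes with a promoter window is plotted by class, with filled circles for genes whose window holds the letters bound by NF-Y on either strand, open circles for those without and bars for medians. The 27 subunits with the letters have a median of -0.090 and the 37 without have -0.042, and assembly factors that rose stand in both columns.

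Several of these genes start close to a gene on the opposite strand, by coordinates alone. Whether the genes of a pair share a promoter in these cells was not tested. Start sites within 1000 bases that point away from each other were found for 21 members with a tested neighbour, and 6 of these members had passed. For 3 of the 6 the neighbour passed as well, and each time in the opposite direction; these neighbours were looked up after the members' values were known. In the whole set of 21 neighbours 1 fell and 4 rose at an adjusted p below 0.05. Among all genes tested 15.8% fell and 15.7% rose at the same rule. Whether the neighbours' counts, or the opposite directions, differ from those of other gene pairs was not tested.

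The bases between the start sites of these 3 pairs are shown because the same stretch lies before a gene that fell and a gene that rose (RefSeq, GRCm38.p6, on the strand of the member). They are at chr9:50603850-50603900 (minus strand) for Sdhd and Timm8b, chr17:56717700-56717761 (plus strand) for Ndufa11 and Vmac and chr13:108158626-108158737 (minus strand) for Ndufaf2 and Ercc8, with CCAAT and ATTGG in capitals.
Sdhd: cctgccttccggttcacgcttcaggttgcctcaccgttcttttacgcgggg
Ndufa11: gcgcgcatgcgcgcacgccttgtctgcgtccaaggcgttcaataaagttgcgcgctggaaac
Ndufaf2: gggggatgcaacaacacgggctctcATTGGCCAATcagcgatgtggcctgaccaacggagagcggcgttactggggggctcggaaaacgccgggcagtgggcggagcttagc
The box stands on both strands of the stretch of Ndufaf2, at -87 and -82, and in neither of the others.

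Timm8b, a small chaperone of the intermembrane space, was at 5.05, 5.06 and 5.01 on the control arrays and at 5.37, 5.40 and 5.38 on the knockdown arrays, a change of 0.35 (SE 0.040, adjusted p = 0.00456) where Sdhd fell by 0.47. Its start site is 52 bases from that of Sdhd. Vmac, a coiled-coil protein, was at -2.49, -2.57 and -2.66 against -2.04, -2.18 and -2.24, a change of 0.42 (SE 0.076, adjusted p = 0.0173) where Ndufa11 fell by 0.32. Ercc8, a factor of transcription-coupled DNA repair, was at 2.62, 2.56 and 2.54 against 2.39, 2.38 and 2.39, a change of -0.19 (SE 0.042, adjusted p = 0.0334) where Ndufaf2 rose by 0.19. None of the 6 genes had overlapping groups. Timm8b passed in 14 of 16 alternatives, Vmac in 11 and Ercc8 in 4, and after quantile normalization Ercc8 did not pass (adjusted p = 0.0566).

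**Figure D5:**
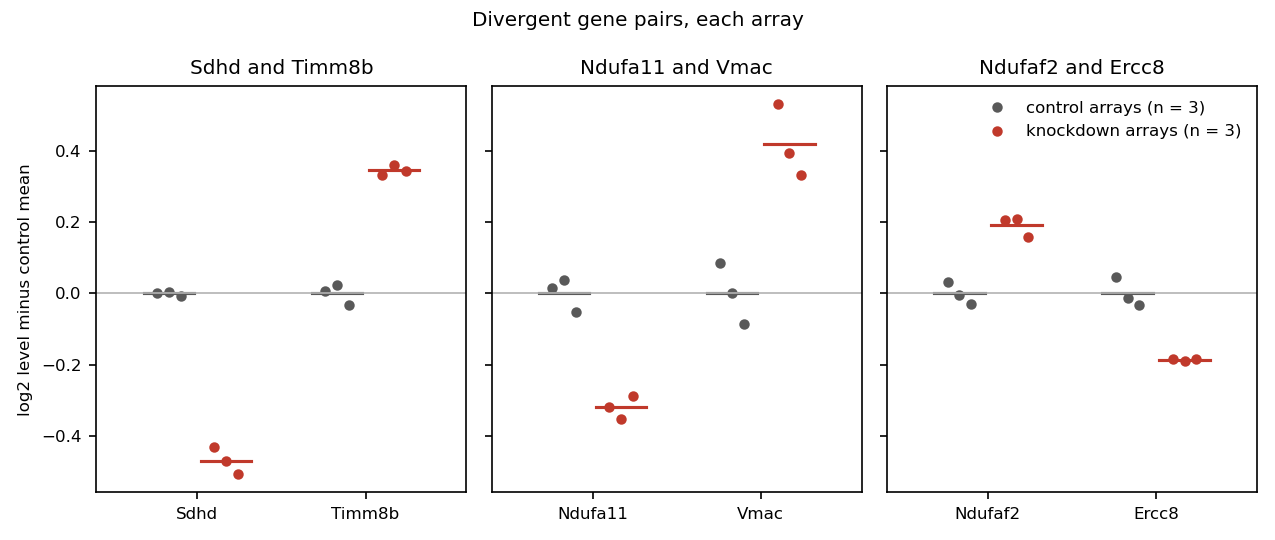
The log2 level of each gene of the 3 divergent pairs on each array is plotted relative to the mean of its controls, with grey points for controls, red points for knockdown arrays and bars for means. In each panel the red points of the genes lie on opposite sides of 0, at -0.47 and 0.35 for Sdhd and Timm8b on average.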

How the data were processed

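RNA of neuro2a cells was hybridised to 6 single-colour Agilent arrays, with the group and number of each array as its sample title gives them. The authors deposited scanner tables in which the processed signal is an intensity on a linear scale, corrected for background by Feature Extraction. The deposited series matrix holds log2 values, which matched the log2 processed signal minus the array's 75th percentile to within 0.0076 over 43733 probes with a single spot, up to a constant for each probe.

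Control spots and outlier-flagged spots were left out, log2 processed signal was scaled to the 75th percentile of each array, and spots of a probe were averaged. A value was missing somewhere for 245 of 55681 probes, which were not tested. Probes at or above the 20th percentile on all 3 arrays of at least 1 group were tested, 42130 in all. Probes were named through RefSeq accessions without versions: 25869 of 26392 curated mRNA accessions matched. A gene was read from its brightest probe. The difference between groups was fitted without covariates by lmFit and eBayes of limma 3.58.1 (R 4.3.3). Its two-sided p-values were adjusted after Benjamini and Hochberg across the tested probes, and the fit was tested on simulated data. Complexes and lists are described by counts and medians, without a test over the list. The number of arrays limits the precision.

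The values of 1 gene are not reported here. The genes and lists were chosen with earlier results of these data known. Named were Nfya and Nfyc, called members, the 2 lowest and 2 highest members of each complex, members that passed in both scalings and the 2 smallest adjusted p of each other list; other names complete a count or were chosen after their values were seen. Alternatives were quantile normalization, median centring, normexp with quantile normalization (on the median rather than the mean signal, which the tables used here do not hold), the series matrix, other filters, an intensity trend, averaged probes, replicate and slide row blocks, and leaving out each array. Arrays were not paired by replicate number in the main fit. Over all tested probes, correlations of same-numbered deviations were 0.018, 0.067 and 0.0025, and of differently numbered ones -0.081 to 0.063. By the 75th percentile, the members' median deviation from the control mean fell with the number in controls (0.032, -0.0042, -0.018) and knockdown arrays (-0.032, -0.048, -0.066). After quantile normalization it rose with the number in knockdown arrays (0.023, 0.029, 0.037).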

Additional observations from a re-analysis of the deposited data

How the results depend on the processing

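Cox7a1 was called in 16 of 16 alternatives and Ndufa4l2 in 10. With the slide row as a block 1 member was called lower, 3 fell and 1 rose, and the medians of complexes I, II and III were -0.0077, -0.11 and 0.025; since the second row held no control, this fit compares knockdown 1 with the controls. With the replicate number as a block 5 fell and 3 rose, against 15 and 7 without it, and both calls were kept. An intensity trend in the variance gave 26 lower and 13 higher, and no filter on low signal gave 9 lower and 4 higher. Quantile normalization gave 14 higher, with medians of 0.029, -0.060, 0.050, 0.032 and 0.024 for complexes I to V. Normexp with quantile normalization gave 17 higher, with medians of 0.020, -0.077, 0.028, 0.0035 and 0.017. Median centring moved the median of all genes to -0.10 and gave 2 higher, with medians of -0.15, -0.24, -0.13, -0.15 and -0.18 for complexes I to V, and under it the changes of Cox8a, Atp5k and Atp5mpl, none of which had passed, turned to -0.030, -0.058 and -0.069. Leaving out each array gave 1 to 2 called lower and 0 called higher, 4 to 11 lower and 3 to 4 higher at any fold, and medians of -0.052 to -0.022 for complex I, -0.15 to -0.12 for complex II, -0.062 to 0.0055 for complex III, -0.051 to -0.043 for complex IV and -0.083 to -0.057 for complex V. The causes of these shifts were not tested. With averaged probes Ndufb11 was called too, and with median centring Ndufaf7. The slide row, which holds knockdown arrays 2 and 3 alone, and the group cannot be fully told apart.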
